A study of Homo sapiens with 8 samples.

Results

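Promoter regions at which peaks of H3K27ac, acetylated lysine 27 of histone H3, covered more sequence after treatment with I-BET151 than after the solvent are described here. They were chosen by their measured lengths. Overlapping peaks of the 4 H3K27ac libraries (1 bp or more in common) were joined into 15752 regions, of which 10317 held a peak of every library and 9956 of those were narrower than 2000 bp. In 8803 of the latter a protein-coding gene started no more than 3 kb from the strongest summit, and these are called shared promoter regions. A shared promoter region was called widened when the shorter of the 2 I-BET151 covered lengths was at least 1.2 times the longer of the 2 DMSO covered lengths. This selected 176 regions at 173 genes, 2.00% of the shared promoter regions. The mirrored rule called 574 regions narrowed, 6.52%, and 8053 regions met neither rule.

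The study asked which chromatin changes accompany the growth of human pancreatic progenitors (PPs) in the presence of a BET inhibitor. The PPs had been derived from human embryonic stem cells of the line MEL1, given in the methods as MEL1 INS GFP/W, which carries a GFP reporter in the insulin gene, so that every library came from 1 genetic background. All cells were kept in EF6, which is DMEM with B27 diluted 1:50, EGF at 50 ng/ml, bFGF at 10 ng/ml and the TGFβ inhibitor 616452 at 10 μM. The DMSO group (2 libraries) received the solvent and the I-BET151 group (2 libraries) received 1 μM of the inhibitor, over a treatment of 7 days, and each of the 4 had its own input library of chromatin that was not immunoprecipitated.

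H3K27ac is placed by the acetyltransferases p300 and CBP and marks active promoters and enhancers, where the acetylated nucleosomes lie on both sides of the nucleosome-poor transcription start. BET proteins bind acetylated lysines through their bromodomains and recruit the elongation factor P-TEFb, and I-BET151 occupies those bromodomains. In PPs the promoters of lineage regulators such as PDX1, GATA4 and FOXA2 carry the mark, and a wider acetylated stretch around a start is a known feature of cell identity genes.

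The labelled cell type was checked against its markers. Of 10 PP genes, 9 had a peak within 3 kb of a start in all 4 libraries, among them PDX1, NKX6-1, SOX9, FOXA2, GATA4 and ONECUT1, and PTF1A had none. None of 7 endocrine markers and none of 3 pluripotency markers had a peak in any library. Markers of other lineages were mixed: ALB, AFP and TTR (liver), TWIST1, COL1A1 and PDGFRA (mesenchyme) and CD34 and PTPRC (blood) had no peak, APOA1 (liver), CDX2 (intestine) and VIM (mesenchyme) had one in all 4 libraries, VIL1 (intestine) had one in 3, and MUC2 (intestine) and PECAM1 (endothelium) had one in the DMSO libraries only. Their part in the results was not tested. The depth left once duplicates were removed was estimated from the peak lists, by a step that was not tested. It came to 7.96 and 9.84 M ChIP reads in DMSO against 7.76 and 8.04 M in I-BET151. For the input libraries it was 3.04 and 2.89 M in DMSO against 3.04 and 2.67 M in I-BET151. By the factors worked out, 0.294 to 0.392, the peak values rest on ChIP reads scaled down to the input depth. By this estimate the deepest ChIP library was a DMSO library. Over all 8803 shared promoter regions, peaks covered 6987 and 6868 kb in DMSO against 6758 and 6506 kb in I-BET151. The mean was 6928 ± 84.0 kb (SD, n = 2) in DMSO and 6632 ± 178 kb (SD, n = 2) in I-BET151, a difference of -296 kb (p = 0.33 by a two-sided exact permutation test, and no smaller p is possible with 2 libraries a group). More regions were narrowed than widened, and the total was shorter in both I-BET151 libraries. The labels number the replicates without saying whether they are separate cultures, so this p-value measures only the spread between libraries.

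The sequence that the widened regions took in is shown for 7 of them, chosen to cover a growth factor, a protein that retains FGF receptors, signalling genes, a strong promoter and PP regulators. An added stretch is sequence that peaks of both I-BET151 libraries covered and no DMSO peak did. Each line gives up to 150 bases of it that lie in no annotated exon, in hg38 and read on the strand of the gene, with every CG dinucleotide in capitals. The stretches are chr5:171420260-171420406 (plus strand, downstream of the DMSO peaks) for FGF18, chr13:26050517-26050641 (minus, downstream) for SHISA2, chrX:17376323-17376472 (plus, downstream) for NHS, chr4:94757793-94757942 (plus, upstream) for BMPR1B, chr12:76084736-76084885 (minus, upstream) for NAP1L1, chr3:194135008-194135157 (plus, on the side facing the gene) for HES1 and chr15:52787515-52787664 (minus, on the side facing the start) for ONECUT1.
FGF18: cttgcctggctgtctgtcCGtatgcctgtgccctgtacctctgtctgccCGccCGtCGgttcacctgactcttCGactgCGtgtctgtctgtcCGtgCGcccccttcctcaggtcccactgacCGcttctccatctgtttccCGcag
SHISA2: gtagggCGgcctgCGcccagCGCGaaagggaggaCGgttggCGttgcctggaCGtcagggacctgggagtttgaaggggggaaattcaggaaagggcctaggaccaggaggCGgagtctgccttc
NHS: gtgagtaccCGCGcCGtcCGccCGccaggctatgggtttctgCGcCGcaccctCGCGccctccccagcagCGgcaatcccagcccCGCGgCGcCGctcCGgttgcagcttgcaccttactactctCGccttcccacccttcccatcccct
BMPR1B: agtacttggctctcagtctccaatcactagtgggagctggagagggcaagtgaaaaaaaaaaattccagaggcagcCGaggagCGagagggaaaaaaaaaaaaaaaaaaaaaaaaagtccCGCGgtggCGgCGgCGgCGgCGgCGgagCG
NAP1L1: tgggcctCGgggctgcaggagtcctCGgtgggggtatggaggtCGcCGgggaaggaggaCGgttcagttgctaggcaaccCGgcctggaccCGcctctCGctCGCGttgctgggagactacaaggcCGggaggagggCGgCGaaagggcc
HES1: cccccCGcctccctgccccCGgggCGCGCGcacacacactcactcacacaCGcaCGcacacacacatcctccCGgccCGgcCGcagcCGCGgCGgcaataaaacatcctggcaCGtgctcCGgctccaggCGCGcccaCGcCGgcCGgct
ONECUT1: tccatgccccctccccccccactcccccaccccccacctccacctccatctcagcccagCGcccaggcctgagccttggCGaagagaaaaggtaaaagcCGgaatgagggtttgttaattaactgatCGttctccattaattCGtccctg

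These stretches differed in make-up. HES1 had 20 CG dinucleotides and 74.7% G and C in 150 bases, and NHS had 16 and 70.7%. ONECUT1 had 5 CG dinucleotides at 58.0% G and C, and BMPR1B had 11 at 52.0%, placed mostly at the end that joins the DMSO-covered part and preceded by runs of A. The NHS stretch opens with gtgag, the usual first letters of an intron, because the exon before it was left out. Over the 170 members with at least 50 added bases, the median GC content was 68.0% in the added stretches (quartiles 62.7 and 72.7%) and 72.7% in the part that DMSO peaks already covered (68.1 and 75.9%). GC content was lower in the added stretch than in the DMSO-covered part at 121 of these 170 members. The ratio of observed to expected CG, a measure of CpG density corrected for base composition, was lower at 91 of 170. No such comparison was made at other shared promoter regions, so neither count is read as particular to the members.

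Across the 176 members the median covered length was 495.5 and 548.5 bp in the DMSO libraries and 911 and 895.5 bp in the I-BET151 libraries. The same medians over all shared promoter regions were 702 and 694 bp in DMSO against 675 and 647 bp in I-BET151. Members were shorter than the usual promoter region in DMSO and longer than it in I-BET151. The rule chose them on these same lengths, so nothing is read from this. The ratio of the shorter I-BET151 to the longer DMSO length had a median of 1.35 and ran from 1.201 to 4.75. It was at least 1.5 at 50 members, at least 2 at 9 and at least 3 at 2. The mean difference in covered length had a median of 314.75 bp and ran from 84.5 to 1526 bp. Within a group the longer library exceeded the shorter by a median of 1.11 times in DMSO and 1.05 times in I-BET151 at the members. Leaving out a library loosens the rule and raised the number of widened regions to 460 without DMSO replicate 1, 413 without DMSO replicate 2, 271 without I-BET151 replicate 1 and 449 without I-BET151 replicate 2, and the number narrowed was then 833, 1011, 1318 and 1087.

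**Figure D1:**
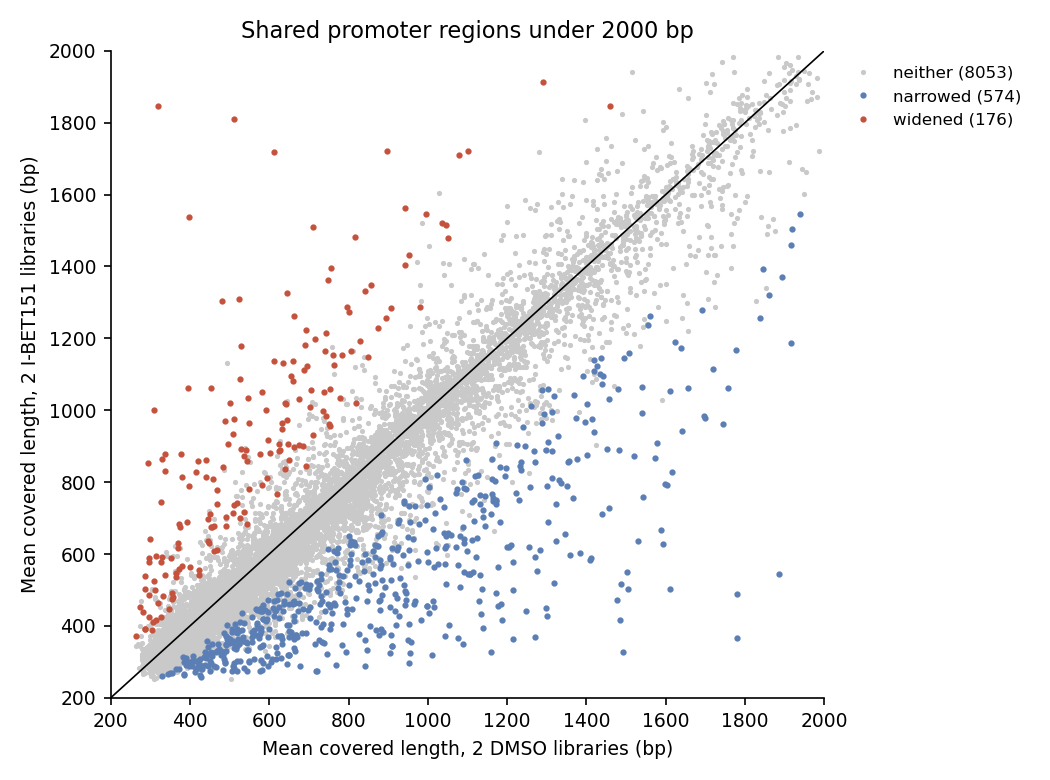
Mean covered length in bp of each of the 8803 shared promoter regions in the 2 DMSO libraries (horizontal axis) and the 2 I-BET151 libraries (vertical axis), on linear axes, with the line of equal length. The 176 widened regions (red) lie above the line by the rule that selected them, the 574 narrowed regions (blue) lie below it, and the remaining 8053 are grey.

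The highest ratios were at SHISA2 and FGF18. SHISA2, whose protein retains FGF and WNT receptors in the endoplasmic reticulum, has its region at chr13:26050012-26051958 on the minus strand. Its covered length was 273 and 368 bp in DMSO against 1947 and 1747 bp in I-BET151, and 1312 of the 1379 bases added in both I-BET151 libraries lay downstream, over the gene. The gap between the groups follows from the choice of the highest ratios. FGF18, a secreted fibroblast growth factor, has its region at chr5:171419657-171421228 on the plus strand. The covered length there was 316 and 478 bp in DMSO against 1516 and 1560 bp in I-BET151, or 397 ± 115 and 1538 ± 31.1 bp (SD, n = 2 each). The summit lay 257 bp downstream of the FGF18 start, in an untranslated exon, and the FGF18 stretch shown above begins where the DMSO peaks end.

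NHS, a regulator of actin remodelling, and BMPR1B, a type I receptor for bone morphogenetic proteins, were taller as well as longer in I-BET151. At NHS (chrX:17375216-17377078, plus strand) the covered length was 630 and 390 bp in DMSO against 1863 and 1760 bp in I-BET151. The ChIP reads at its summit, per M of reads in the library, were 8.42 and 8.03 in DMSO against 30.7 and 30.1 in I-BET151, a ratio of 3.70 and the highest among the members. BMPR1B (chr4:94757482-94758800, plus strand) was covered over 465 and 580 bp in DMSO against 1305 and 1312 bp in I-BET151. Its summit reads per M were 19.1 and 13.0 in DMSO against 51.1 and 50.9 in I-BET151, a ratio of 3.18. For both genes the lengths separate by group because of the rule. The summit reads, taken from the same contrast, also separate.

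The other members among the 12 highest ratios belong to genes of varied function. CTNND2, the adhesion protein delta-catenin, was covered over 273 and 346 bp in DMSO against 1034 and 968 bp in I-BET151. CADM1, an immunoglobulin-like adhesion molecule, was covered over 437 and 468 bp in DMSO against 1097 and 1028 bp in I-BET151. NIN, the centrosomal protein ninein, had 297 and 363 bp in DMSO against 929 and 802 bp in I-BET151. In each of them the gap between the groups follows from the ranking by ratio and is not a separate result. RALGDS, an exchange factor for Ral that binds active Ras, had 555 and 503 bp against 1260 and 1095 bp, and the kinase gene WNK2 had 359 and 866 bp against 1736 and 1700 bp. WNK2 is the member of this group at which the DMSO libraries differed most, by 507 bp. ZNF775, KCNMB4 (a subunit of a calcium-activated potassium channel) and ADAMTS19 (a secreted metalloprotease) completed the 12 with ratios of 2.31, 2.15 and 1.94.

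**Figure D2:**
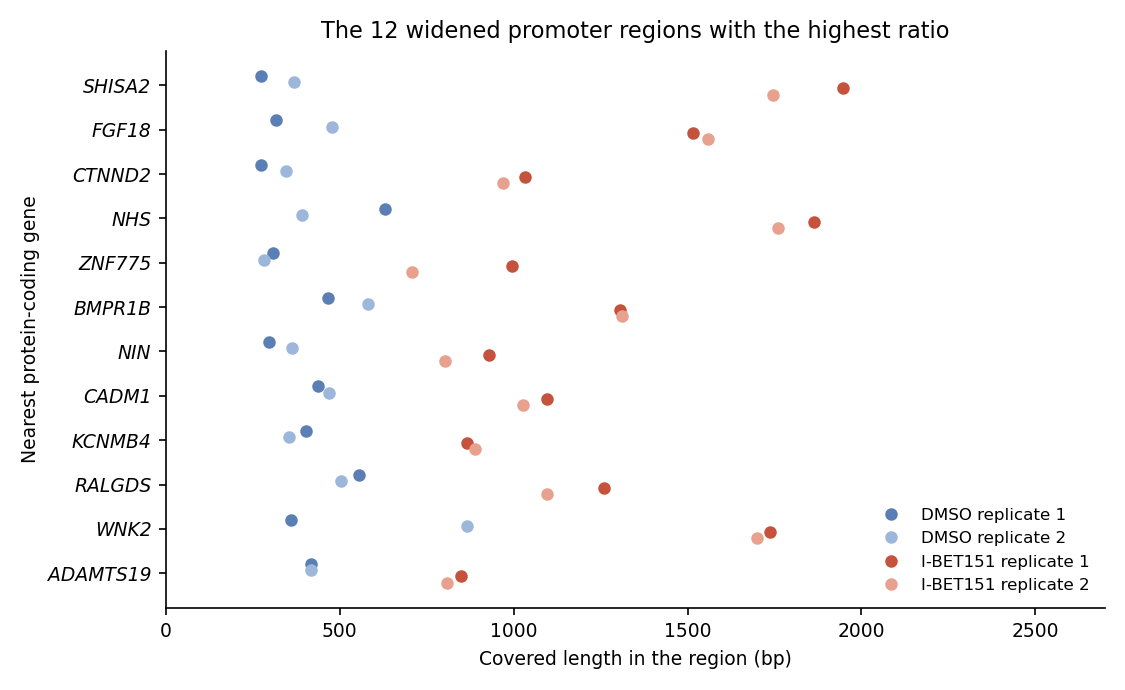
Covered length in bp (horizontal axis, from 0) in each of the 4 libraries at the 12 members with the highest ratio of the shorter I-BET151 to the longer DMSO length. Each point is 1 library, and by the selection rule both red I-BET151 points lie to the right of both blue DMSO points at every gene, with the widest gap at SHISA2.

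The added sequence fell on both sides of the DMSO peaks. Of the 45104 added bases, 48.4% lay on the downstream edge in the direction of the gene, 44.7% on the upstream edge and 6.87% between DMSO peaks. Most of the added bases were downstream at 86 members and upstream at 75, and 37 members gained at least 50 bases on both edges. Among the 97 members with a mean DMSO fold under 4 over local background, most were downstream at 60 and upstream at 32. At the 807 regions under that fold that were not widened, most were downstream at 142 and upstream at 145. Over all shared promoter regions the added bases were split in much the same way, 46.5% downstream, 45.3% upstream and 8.20% between. With the members called on ratios of at least 1.5 the downstream share was 58.7%, and with equally long lists of top-ranked peaks it was 39.6%. A gap between DMSO peaks was filled at 16 members, as at CBX2, a chromodomain subunit of the Polycomb complex PRC1, where 217 of 565 added bases lay between peaks. At 144 of 176 members every library had 1 peak, so that most members were longer peaks and not joined ones. A single peak in every library was rarer at members (81.8%, 95% Wilson interval 75.5 to 86.8%) than over all regions (93.2%, 92.7 to 93.7%). Among the 574 narrowed regions the share was 84.0% (80.7 to 86.7%), so a low share was not particular to the widened ones. These intervals, like all those below, cover counting error only, and regions are not replicates.

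**Figure D3:**
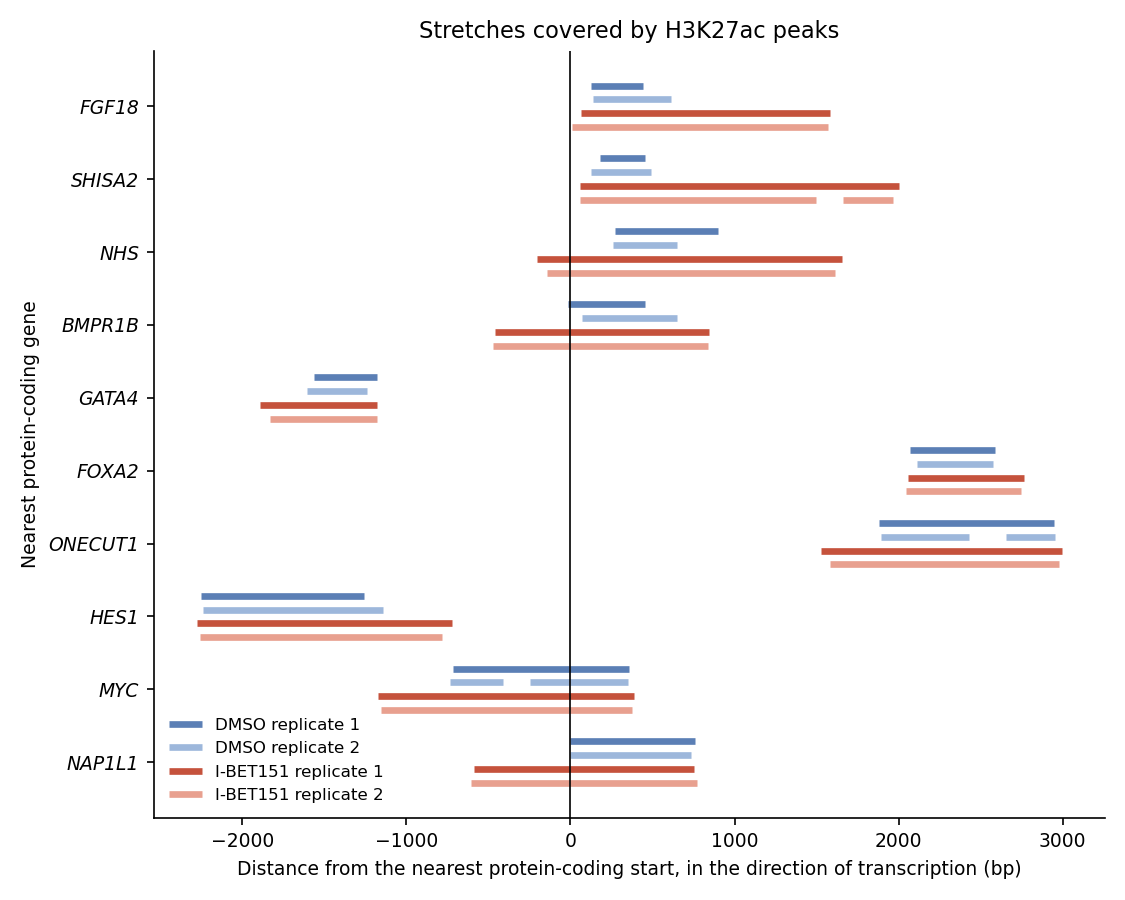
Stretches covered by H3K27ac peaks at 10 members, by distance in bp from the nearest protein-coding start in the direction of transcription (horizontal axis), with 1 bar per peak and 1 line per library. FGF18 and SHISA2 extend mainly downstream, NAP1L1 and MYC mainly upstream, NHS and BMPR1B on both sides, and the GATA4, FOXA2, ONECUT1 and HES1 regions lie away from the start.

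Members were weakly enriched in DMSO. Their median fold enrichment at the summit was 3.56 and 3.96 in the DMSO libraries, against 6.00 and 6.69 over all shared promoter regions. In I-BET151 it was 6.01 and 6.33 at the members, against 6.62 and 6.73 over all. The mean DMSO fold was under 4 at 97 of 176 members (55.1%), and at 10.3% of all regions. The widened share was 10.7% of the 904 regions with a mean DMSO fold under 4, 1.89% of those from 4 to 6, 0.626% of those from 6 to 8 and 0.411% of the 2434 regions at 8 or more. The narrowed share over the same classes was 8.96, 8.65, 5.56 and 4.27%. A peak's length and its fold come from the same reads, and the part of the DMSO strength in the selection was not tested. The input level worked out at the summit was itself high, with medians of 42.0 to 49.0 times the genome-wide level over all shared promoter regions, so a fold here is relative to an input that was enriched at promoters, and a region called weak is weak relative to it.

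The summit was higher together with the length at most members. Whole reads could be worked out in all 4 libraries at 175 members. The median summit height was 18.6 and 17.4 ChIP reads per M in DMSO against 26.6 and 28.6 in I-BET151, which was the usual height of a shared promoter region (29.9 and 27.7 in DMSO, 26.6 and 28.6 in I-BET151). The 2 I-BET151 values were above the 2 DMSO values at 143 of 175 members, and at 27.5% of all regions. The rule and this count use the same contrast, so nothing is read from the excess. In bulk chromatin, fewer cells with the mark and less of it per cell cannot be told apart. In fold, both I-BET151 libraries were above both DMSO libraries at 120 of 176 members and at 24.8% of all regions. The median ratio of I-BET151 to DMSO summit reads was 1.39 at the members and 0.992 over all regions. The ratio of the local input level was 0.895 at the members and 0.953 over all. Across members the ratio of mean lengths and the ratio of summit reads had a Spearman correlation of 0.272 (n = 175 regions that share 4 libraries), and 71 members had summit reads at least 1.5 times as high in I-BET151.

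**Figure D4:**
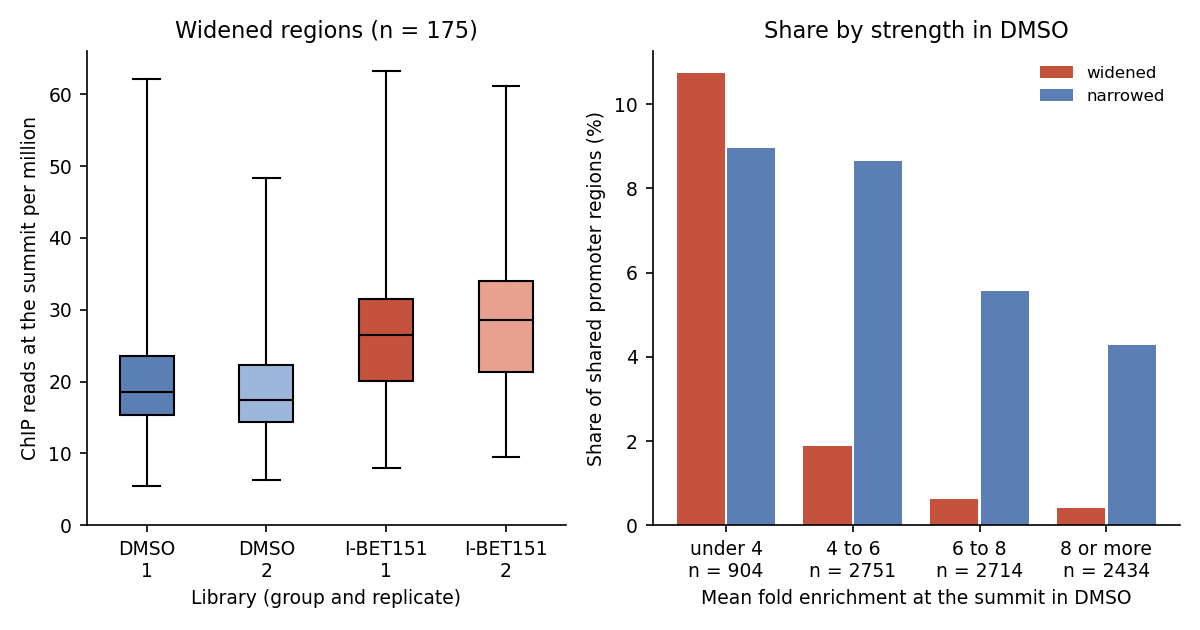
Left, ChIP reads at the summit per M reads of the library at the 175 members resolved in all 4 libraries, as median, quartiles and full range per library. Right, share in percent of shared promoter regions that were widened or narrowed, by mean fold enrichment in DMSO. The I-BET151 medians are 26.6 and 28.6 against 18.6 and 17.4 in DMSO, and the widened share is 10.7% in the weakest class and 0.411% in the strongest.

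Length and height came apart at some members. At 11 members the mean summit reads were lower in I-BET151 than in DMSO, with the lowest ratio, 0.821, at ADPRS, an enzyme that removes ADP-ribose. FOS, an AP-1 subunit, was covered over 468 and 628 bp in DMSO against 780 and 783 bp in I-BET151. Its summit had 19.7 and 19.5 reads per M in DMSO against 19.2 and 20.0 in I-BET151, so the groups overlap in height. In length they cannot overlap under the rule. At ID3, an inhibitor of basic helix-loop-helix factors that responds to BMP, the lengths were 427 and 480 bp against 696 and 653 bp and the summit ratio was 1.00. ADPRS was named for its value after the data were seen.

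The members with the strongest peaks added length, and their summits rose less than at the median member. By mean −log10 p the 8 strongest included NAP1L1 (a histone chaperone), USP6NL (a GTPase-activating protein for RAB5), CEP41 (a ciliary protein), TBC1D5 (a regulator of RAB7), GTF2I (a general transcription factor), HEG1 (a membrane receptor) and DCP1B (an mRNA decapping protein). NAP1L1 was covered over 762 and 733 bp in DMSO against 1344 and 1379 bp in I-BET151, and all 586 added bases lay upstream of the DMSO peaks, and 150 of them are shown above. Its summit reads were 42.0 and 38.6 per M in DMSO against 45.9 and 50.3 in I-BET151. USP6NL had 688 and 685 bp against 1152 and 1073 bp, again with every added base (373) upstream. GTF2I had 1451 and 1467 bp against 1816 and 1876 bp with 371 added bases downstream, but near-identical copies of part of this gene exist, and its reads may not be unique. Ratios of summit reads among these 8 ran from 1.12 to 1.35, beside a median of 1.39 over the members.

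Transcription factors of the PP state were among the members. Of the 35 genes on a list of PP factors, 26 had a shared promoter region, 52 regions in all. Widened were 4 of these, among them GATA4, FOXA2 and ONECUT1, and 2 were narrowed, beside 2.00% and 6.52% of all regions. Both I-BET151 lengths exceeded both DMSO lengths at 21 of the 52, against 14.5% of all regions, and the reverse held at 5, against 34.0% of all regions. The median log2 ratio of mean lengths was 0.07 over the list and -0.04 over all shared promoter regions.

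The regions of GATA4, FOXA2 and ONECUT1 did not lie on the start. The GATA4 region was centred 1400 bp upstream of the nearest GATA4 start and covered 379 and 364 bp in DMSO against 717 and 649 bp in I-BET151. FOXA2, a pioneer factor of endoderm, had its member region 2258 bp downstream of the nearest FOXA2 start, in a coding exon, with 518 and 465 bp against 704 and 702 bp. ONECUT1, also known as HNF6, had it 2170 bp downstream in an intron, with 1067 and 839 bp against 1464 and 1401 bp. Each of the 3 lay within 1 kb of another H3K27ac region, at 723, 163 and 272 bp. They thus stood beside other acetylated stretches, and their summit reads were 1.39, 1.69 and 1.53 times as high in I-BET151 as in DMSO. The map of covered stretches shows them away from the start. A summit over 1 kb from the nearest start was found at 15 of the 176 members. Summits lay within 1 kb at 161 members and at 8528 of the 8803 shared promoter regions, a smaller share of members than of all.

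On the Notch list 1 of 32 shared promoter regions was widened and none narrowed, beside 2.00% and 6.52% of all regions. The widened one was at HES1, the basic helix-loop-helix repressor that Notch signalling induces. Its region at chr3:194133871-194135427 lay 1844 bp upstream of the HES1 start and covered 995 and 1098 bp in DMSO against 1557 and 1474 bp in I-BET151. Of 362 added bases, 358 were on the side facing the gene, and 150 of them are printed above. Summit reads were 34.3 and 32.4 per M in DMSO against 46.3 and 46.7 in I-BET151, with no overlap between groups. Over the Notch list both I-BET151 lengths exceeded both DMSO lengths at 11 of 32 regions and the reverse held at 5, beside 14.5% and 34.0% of all regions, and the median log2 ratio of lengths was 0.01.

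Growth factor signalling was represented by a ligand and a receptor. Counts on the lists that follow are read against 2.00% widened and 6.52% narrowed over all shared promoter regions. On the list of MAP kinase and receptor tyrosine kinase genes 3 of 43 regions were widened, among them FGF18 (a ligand) and FGFR1 (a receptor tyrosine kinase for FGFs), and 2 were narrowed. FGFR1 was covered over 582 and 708 bp in DMSO against 997 and 947 bp in I-BET151, with 205 of 239 added bases downstream. Of the transcription factors of the AP-1, EGR and MYC list, 3 of 38 regions were widened (MYC, MYCL and FOS) and 6 were narrowed, and the median log2 ratio of lengths was -0.06. MYC, the growth-promoting basic helix-loop-helix factor, had 1073 and 919 bp in DMSO against 1558 and 1533 bp in I-BET151, with 424 of 444 added bases upstream. Its summit reads were 17.1 and 18.7 per M in DMSO against 30.0 and 29.5 in I-BET151. MYCL, its relative, had 288 and 377 bp against 464 and 504 bp. On the TGFβ and BMP list 2 of 47 regions were widened, the receptor BMPR1B and the target ID3, and 3 were narrowed.

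Chromatin and cell cycle genes gave few members. CDC73, a subunit of the PAF1 elongation complex, was the 1 widened region of 31 on the list of BET proteins and elongation factors, with 464 and 470 bp against 725 and 755 bp. CBX2 was 1 of 80 on the list of chromatin regulators, with 953 and 934 bp against 1580 and 1543 bp, and 7 regions of that list were narrowed. RFC3, a clamp loader subunit, and AURKA, a mitotic kinase, were 2 of 53 on the cell cycle list, and ARHGEF7, an exchange factor for Rac and Cdc42, was 1 of 55 on the list of actin and small GTPase regulators. RFC3 had the smaller lengths of the pair, 312 and 319 bp against 428 and 406 bp. None of the regions of the other 13 lists was widened, among them 30 of the WNT pathway, 26 of the Hippo pathway, 38 of epithelial junction and duct genes, 18 of the extracellular matrix, 35 of lipid and sterol synthesis and 14 of liver and intestine genes. Counts this small are read against the 2.00% widened and 6.52% narrowed over all regions.

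HOX genes had few shared promoter regions. Of 6 such regions, at 4 genes, 2 were widened, HOXA4 and HOXB4, which encode paralogous homeodomain factors, beside 2.00% of all shared promoter regions. All 6 had both I-BET151 lengths above both DMSO lengths, beside 14.5% of all regions. HOXA4 was covered over 405 and 436 bp in DMSO against 885 and 831 bp in I-BET151, with summit reads of 17.7 and 15.4 against 35.5 and 35.3 per M. HOXB4 was covered over 309 and 344 bp in DMSO against 579 and 577 bp in I-BET151, with 11.8 and 11.1 against 26.7 and 28.5 reads per M. Both were named after their values were seen. Widened regions numbered 6 of 154 at solute carriers, 5 of 218 at ubiquitin ligases and peptidases and 3 of 252 at ZNF genes, and 0 of 60 at ribosomal protein genes, 0 of 57 at respiratory chain genes and 0 of 36 at proteasome genes.

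The genes of the members were long. Median gene length was 70.6 kb (quartiles 27.8 and 166 kb) at the members and 38.5 kb (16.0 and 90.3 kb) over all shared promoter regions. A gene over 100 kb long was nearest at 74 of 176 members (42.0%, interval 35.0 to 49.4%) and at 22.6% of all regions (21.7 to 23.5%). Because members were weak in DMSO, they were also set beside the 807 regions that had a mean DMSO fold under 4 and were not widened, where the share was 27.9% (24.9 to 31.1%). The interval of the members does not meet either of the others. Among the 97 members with a mean DMSO fold under 4 the share was 44.3% (34.8 to 54.2%). AUTS2, a gene of 1195211 bp whose protein joins a variant PRC1 complex, held a pair of members at different starts, as did WNK2 and PRICKLE1. The first AUTS2 region had 329 and 632 bp in DMSO against 1186 and 1423 bp in I-BET151, and the second, over 1 Mb away, had 311 and 284 bp against 592 and 561 bp.

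Divergent promoters, which start a pair of protein-coding genes in opposite directions within 1 kb, were few. They made up 8 of 176 members (4.55%, interval 2.32 to 8.71%), 12.9% of all regions (12.2 to 13.6%), 11.2% of the weak regions that were not widened (9.16 to 13.5%), and 3 of the 97 members under a mean DMSO fold of 4 (3.09%, 1.06 to 8.70%). Another H3K27ac region lay within 5 kb of 22.7% of members (17.2 to 29.5%), of 30.9% of all regions (29.9 to 31.9%) and of 30.0% of the weak ones (26.9 to 33.2%), whose interval meets that of the members. A start lay inside 79.0% of member regions (72.4 to 84.3%), 85.0% of all (84.3 to 85.7%) and 75.1% of the weak regions that were not widened (72.0 to 78.0%). The strongest summit was in an intron at 82 members, in an untranslated exon at 51, in a coding exon at 30 and upstream or between genes at 13. These positions were not worked out over all shared promoter regions, so they are not read as particular to the members. A start of a long noncoding RNA lay within 15.9% of members (11.2 to 22.0%), 14.9% of all regions and 11.3% of the weak ones (9.27 to 13.6%), differences within the counting error.

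Member summits were rich in G, C and CG. In the 250 bases on either side of the summit the median GC content was 72.3% at the members (quartiles 66.6 and 76.4%), 69.5% over all regions and 71.9% at weak regions that were not widened. The observed to expected ratio of CG was 0.852, 0.828 and 0.842 in the same order. A window with at least 50% GC and a ratio of at least 0.6, as CpG islands have, was found at 167 members (94.9%, interval 90.6 to 97.3%), 91.9% of all regions and 94.5% of weak ones that were not widened. Like for like, the 97 members with a mean DMSO fold under 4 had a median GC content of 74.1% (quartiles 70.1 and 77.4%), above the 71.9% (67.7 and 75.5%) of weak regions that were not widened, and the quartile ranges overlap.

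Letters of 18 transcription factor motifs were searched on both strands in the same windows. ACAATG, the core bound by SOX factors, was present at 23 of 176 members (13.1%, interval 8.87 to 18.9%), 7.43% of all regions (6.90 to 8.00%) and 7.06% of weak regions that were not widened (5.49 to 9.04%). The members' interval stays above that over all regions and meets that of the weak regions. It was the one motif of the 18 that was more frequent beyond the interval over all regions. In windows of 100 bases on either side the share was 3.41% at the members and 2.16% over all, which is 6 members and within the counting error. CCGGAA, the core bound by ETS factors, was rarer at the members, 24.4% (18.7 to 31.3%) against 34.0% of all regions (33.1 to 35.0%) and 29.2% of weak ones (26.2 to 32.5%). GTGGGAA, read by the Notch effector RBPJ, was at 5.11% of members (2.71 to 9.43%) and 9.09% of all (8.51 to 9.71%), intervals that overlap, and GGGCGG, bound by SP and KLF factors, was at 88.6% and 86.0%. A match is a description of letters and not of binding.

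**Figure D5:**
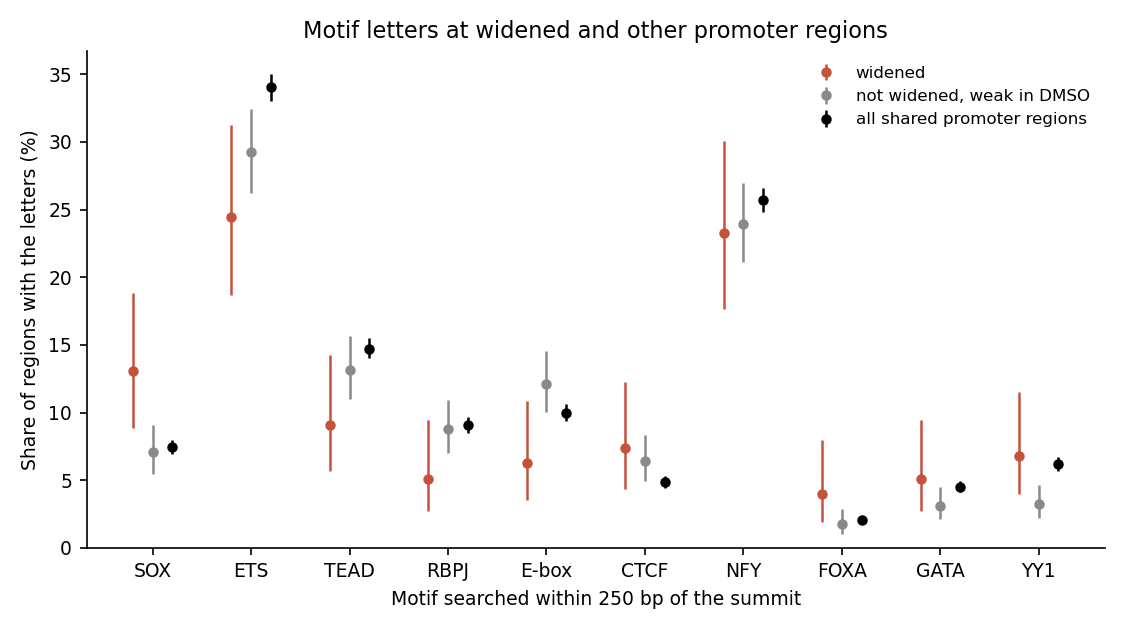
Share in percent of regions whose summit window holds the letters of each of 10 motifs, with 95% Wilson intervals that cover counting error only, at the 176 members (red), at 807 regions weak in DMSO and not widened (grey) and at all 8803 shared promoter regions (black). SOX letters are at 13.1% of members against 7.43% of all regions, and ETS letters are at 24.4% against 34.0%.

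The SOX letters are shown at a few sites outside every exon at named members, because they were the letters found more often. SOX5, itself an HMG-box factor of the SOX family, had them at chr12:24562612-24562641 and chr12:24562654-24562683, and ARHGEF7 had them at chr13:111115851-111115880. Each line gives 12 bases on either side in hg38, on the minus strand for SOX5 and the plus strand for ARHGEF7, with the letters (here the reverse complement of ACAATG) in capitals.
SOX5, first site: tatttgcactcgCATTGTgttgtttgtctc
SOX5, second site: cctcgcctccccCATTGTtcctactgtctt
ARHGEF7: ctcggggggcgcCATTGTgtgcggggcagg

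SOX5 was covered over 432 and 987 bp in DMSO against 1504 and 1516 bp in I-BET151, and 435 of its 473 added bases filled a gap between DMSO peaks. ARHGEF7 was covered over 581 and 849 bp in DMSO against 1177 and 1217 bp in I-BET151, with summit reads of 15.6 and 16.2 against 28.6 and 27.6 per M. RALGDS, FGFR1 and FGFRL1 are other named members with these letters in the summit window.

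The values at the threshold follow, with no test. Just inside it were DCP1B, with 554 and 536 bp in DMSO against 699 and 667 bp in I-BET151 (ratio 1.204), FGFRL1, a receptor that binds FGFs without a kinase domain, with a ratio of 1.203, and the adaptor BCAR3, with 1.201. Just outside it were RAB3GAP2 with a ratio of 1.199, EZH2, the methyltransferase of Polycomb complex PRC2, with 1.198, and DPYSL3 with 1.196. EZH2 was covered over 1410 and 1387 bp in DMSO against 1692 and 1689 bp in I-BET151. FGFRL1 had 18.2 and 17.7 summit reads per M in DMSO against 17.9 and 16.5 in I-BET151, so its height did not separate the groups.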

How the data were processed

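H3K27ac ChIP-seq was analysed from the peak lists of 4 libraries (DMSO and I-BET151, 2 each). Per its methods, the study's authors aligned reads to hg38 with Bowtie2 2.2.5, removed duplicates with Picard and called peaks for every library separately with MACS2 2.1.2 at default settings. The deposited lists hold each peak's interval and, from MACS2, its summit fold enrichment (a ratio to the local input) with the p-value and q-value as −log10. Fixed thresholds make a peak's length depend on depth and local input. The build was checked by position: a GENCODE release 44 protein-coding start (any transcript) was no more than 3 kb away for 82.1 to 85.9% of summits, and for 17.3 to 18.0% once they were shifted by 1 Mb.

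Members and gene lists were chosen with earlier results of these data known. Covered length is the sum of a library's peaks in a region. Reads at the summit were worked out from fold (pseudocount 1) and Poisson p for 99.7 to 99.9% of peaks. This step was tested on simulated peaks built from reads that it had itself returned. Depths were estimated from the lowest local input level, the shortest peak and a genome size of 2.7e+09. That estimate, on which every value per M rests, was not tested. Everything from the contrast of the rule is given without a test. One value a library, the total covered length, was compared by a two-sided exact permutation test. Shares carry Wilson 95% intervals. Regions carry the gene of the nearest start. Named are the 12 highest ratios, the 8 most added bases, the 8 highest mean −log10 p, up to 4 members per list of 22 gene lists (12 further families were counted), and 3 regions on either side of the threshold. Coordinates are 1-based. Python 3.11.15, pandas 2.3.3, scipy 1.17.1 and pysam 0.24.0 were used. The input libraries were used only through the lists. Some members and items that these rules name are not reported here.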

Additional observations from a re-analysis of the deposited data

How the results depend on the processing

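With a ratio of at least 1.1 there were 362 widened and 1147 narrowed regions, with a median ratio of 1.19 and 212.5 added bp, and with at least 1.5 there were 50 and 173, with 1.69, 485 bp and 58.7% of added bases downstream. Leaving out 1 library gave 271 to 460 widened and 833 to 1318 narrowed regions, 233.5 to 276 added bp, a GC content of 68.3 to 71.7%, CpG-island-like windows at 88.2 to 94.4% and 44.7 to 47.8% of added bases downstream. The counts are higher since fewer libraries have to meet the rule. Equally long lists of top-ranked peaks left 119 widened regions, of which 113 overlapped members, with 349.5 added bp and 39.6% downstream. The downstream share was 44.6% with peaks of −log10 q of at least 5 and 51.3% with the extent of a region in place of covered length, and CpG-island-like windows made up 98.1% within 1 kb of a start. With a replicate block, in which each I-BET151 library was compared with the DMSO library of its number, 227 regions were widened and 726 narrowed, with 278 added bp. All 176 members were among the 227. Same-numbered libraries share only a number (correlation of the replicate differences in log2 covered length 0.0756). The mean paired difference in total covered length is -296 kb by arithmetic, so only the values of the pairs, -229 and -362 kb, add to it. In every one of these settings fewer regions were widened than narrowed. In windows of 100 bases the GC content was 73.6%, and 15 of the 18 motif shares moved, as a shorter window holds fewer letters. The other 70 values of the main results were called unchanged, as were 17 values of the further ones. For the total covered length this rested on the sign alone (-290 kb with equally long lists, -274 kb with −log10 q of at least 5) or on arithmetic. The rest stayed within the spread between pairs, the counting interval or 1.5 times the count. Where a share moved with the peak list or the measure of length, the cause was not tested. Depth was estimated at 7.76 to 9.84 M reads a ChIP library and 2.67 to 3.04 M an input library. Reads at the edges of peaks were not measured.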

Other observations

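Widened regions by chromosome are given here as counts with no test, beside 2.00% widened and 6.52% narrowed over all shared promoter regions. The chromosomes named were picked for high or low shares. Others lay near the share over all regions, such as chromosome 1 (2.25%) and chromosome 8 (2.03%). Chromosome 13 held 9 among 171 shared promoter regions (5.26%) and had 3 narrowed, whereas chromosome 19 held 3 widened among 595 (0.504%) and had 56 narrowed. SHISA2, ARHGEF7 and RFC3 are named members on chromosome 13. Chromosome 12 held 18 widened among 468 (3.85%), among them NAP1L1, SOX5 and KCNMB4.

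The 6 members at solute carriers, with ratios from 1.22 to 1.38, included SLC23A2 (a vitamin C transporter), SLC25A29 (a mitochondrial carrier), SLC7A1 (a cationic amino acid transporter), SLC44A2 and SLC35F2. Of the 154 regions at solute carriers 6 were widened and 22 narrowed, beside 2.00% and 6.52% of all shared promoter regions. PIDD1, an adaptor that activates caspase-2, was covered over 659 and 1134 bp in DMSO against 1648 and 1796 bp in I-BET151, and 217 of its 424 added bases filled a gap between DMSO peaks. All of these names except PIDD1 and those given by list or ratio were chosen after their values were seen.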
